A study of Mus musculus with 4 samples.

Results

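Narrow H3K4me3 regions that lie away from H3K27me3 were examined in mouse rosette stem cells of the lines CGR8 (129/Ola) and R1 (129). They were taken from the CGR8 H3K4me3 list as regions at most 1000 bp wide on chromosomes 1 to 19. Each had to overlap an R1 H3K4me3 region by at least 1 bp, overlap no H3K27me3 region of either line, and lie more than 5000 bp from any H3K27me3 region of CGR8. The regions were thus selected on their measured width in CGR8, on an H3K4me3 call in R1 and on the H3K27me3 calls. The rule kept 1354 of the 25241 H3K4me3 regions of CGR8 (5.36%). The cells had been embryonic stem cells, and all groups were kept for 8 days in N2B27 with LIF, 2 µM IWP2 (a blocker of WNT secretion) and 1 µM PD325901 (a MEK inhibitor), on gelatin and serum-coated plates. Each mark was measured in 1 library per line, and each line is a single established line. No test of a difference between lines or between sets of regions was therefore made, and regions of a library were not treated as replicates. Values are counts, medians and intervals that cover counting error only. Positions are on build mm9, counted from 1.

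H3K4me3 is written on the tail of histone H3 by the SET1 and MLL methyltransferase complexes, which are drawn to unmethylated CpG-rich DNA in part through the CXXC protein CFP1. It is read by the TFIID subunit TAF3, among others, and marks the starts of active genes and of many silent developmental genes. At the latter it lies beside H3K27me3, the mark of Polycomb repressive complex 2, an arrangement called bivalent. H3K4me3 usually covers several nucleosomes around a start site. Short or weak stretches are known from alternative promoters, from small CpG-rich elements and from some enhancers.

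Most narrow regions of CGR8 were lost at the steps on sharing and on H3K27me3. Of the 24589 H3K4me3 regions on autosomes, 3694 were at most 1000 bp wide, and 923 of these had no R1 partner. Of the 2771 that did, 1228 overlapped H3K27me3, which was that of CGR8 in 1147 cases and that of R1 in 1083. A further 189 lay within 5000 bp of CGR8 H3K27me3 without touching it. Among the 1354 kept, 649 were 1000 bp wide, 457 were 800 bp, 190 were 600 bp, 55 were 400 bp and 3 were 200 bp. The width limit cut through a continuous range. The 649 regions of 1000 bp had a median score of 76.8, and 780 regions of 1200 bp that met all other conditions had one of 88.9. At the limit on distance, 26 regions 5200 to 6000 bp from CGR8 H3K27me3 had a median score of 62.1, and 37 regions just too near, at 4200 to 5000 bp, had one of 66.8.

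The narrow regions without H3K27me3 sat low in the CGR8 list. The score is the authors' deposited value for a region, with no stated unit. Its median was 67.3, with quartiles of 50.7 and 99.9 and a range from 38.6 to 1642. The lowest score of the whole CGR8 list was 38.5, and 819 of the 1354 (60.5%) scored no more than 2 times that value, against 22.8% of all autosomal regions. When the whole list was ranked and cut into 10 equally large classes, the 3 with the lowest scores held 332, 378 and 339 of the regions. Only 25 reached the upper 50% of the list. Because the widths that chose the regions come from the same list as these scores, they describe the set and are not a finding about it.

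Other sets of CGR8 regions give the scale, as the plot of scores by set shows. The 12313 wider shared regions that met the same conditions on H3K27me3 had a median score of 824. The 1228 narrow shared regions with H3K27me3 had a median of 89.9, and 631 narrow regions of CGR8 alone without H3K27me3 had one of 45.9. Per kb of width the medians were 84.4 for the narrow regions without H3K27me3, 108 for narrow ones with it, 327 for wider ones and 58.6 for those of CGR8 alone. The score per kb showed no step at the width limit, with medians of 76.8 at 1000 bp and 74.1 at 1200 bp. Among the narrow regions it was higher the narrower they were, with medians of 81.0 at 800 bp, 98.4 at 600 bp and 127 at 400 bp, and every region had to pass the same lowest score. In R1, the shared sets stood in the same order, with medians of 69.3 (narrow without H3K27me3), 99.2 (narrow with it) and 827 (wider). The sets were cut by CGR8 width and required an R1 call, so this order is not an independent check.

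**Figure D1:**
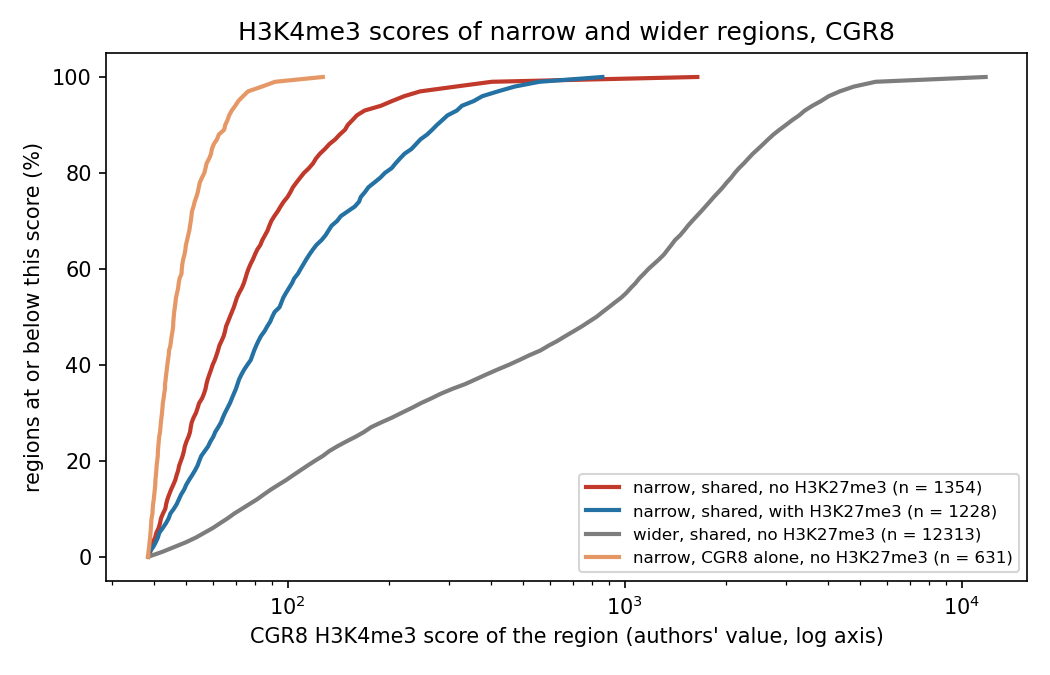
Share of regions (vertical axis, percent) at or below a given CGR8 H3K4me3 score (horizontal axis, log scale) in 4 sets of regions. The narrow shared regions without H3K27me3 (red) have a median of 67.3, between those of CGR8 alone (45.9) and narrow ones with H3K27me3 (89.9), far below the wider ones (824).

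Narrow regions with H3K27me3 had the higher median score at each width from 400 to 1000 bp, by differing amounts. At 400 bp the medians were 50.7 without H3K27me3 (n = 55) and 59.3 with it (n = 22). At 600 bp the median scores were 59.0 without H3K27me3 (n = 190) and 60.8 with it (n = 167). At 800 bp they were 64.8 (n = 457) and 80.4 (n = 374). At 1000 bp they were 76.8 (n = 649, quartiles 53.4 and 124.1) and 115 (n = 665, quartiles 69.4 and 220). In R1, the partners of these 1000 bp regions had median scores of 78.5 and 133. The quartile ranges overlapped at each of these widths, so many single regions of the sets cannot be told apart by score.

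The number of sequencing reads behind each narrow region could be read back from its score. The scores of narrow regions equalled a sum over windows of 200 bp, in which each window gave minus the natural log of the Poisson probability of its reads, with a mean of 0.740 reads per window in CGR8 and 0.706 in R1. Within 1e-08, this gave a single total of reads for 3693 of the 3694 narrow autosomal regions of CGR8 and for 4064 of the 4065 of R1. With the mean of the other line in place of its own, it gave none in either list. Totals were thus known for 1353 of the 1354 regions in CGR8, and for 1314 in both lines. Of the rest, 39 had an R1 region over 2000 bp, which was not searched, and 1 had no such sum.

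These regions rest on few reads. The median was 35 reads in scored windows in CGR8, with quartiles of 28 and 47 and a highest total of 212. A total of 35 has an exact 95% Poisson interval of 24.4 to 48.7. The score is not proportional to the reads, so its own counting error differs from this and was not computed. Over the mean of the library, the reads per scored window were enriched 11.8-fold (median; quartiles 9.73 and 15.4). In R1 the median was also 35 reads, and the enrichment was 11.7-fold. Narrow regions with H3K27me3 had a median of 43.5 reads and 14.0-fold enrichment in CGR8, and those of CGR8 alone had 27 reads and 9.19-fold enrichment.

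Most narrow regions had reads in every window. In 1255 of the 1353 regions with a known total, every window of the region was scored, and in the others a window inside the region was left out of the score. The reads of the highest window were fixed by the score in 1181 regions, and that window held a median of 43.9% of the region's reads, from 22.2% to 100.0%. The highest of several windows exceeds an even share even where reads are spread evenly. Whether these shares go beyond that was not tested. By width the median was 65.9% at 400 bp, 52.1% at 600 bp, 45.2% at 800 bp and 39.3% at 1000 bp. Narrow regions with H3K27me3 had nearly the same shares, at 64.7%, 51.9%, 44.1% and 40.2%. The 3 regions of 200 bp each held 17 reads in their single window (exact 95% Poisson interval 9.90 to 27.2). Their R1 partners were 400 bp wide and held 21 reads on chromosome 1, 29 on chromosome 10 and 50 on chromosome 12.

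The 25 regions in the upper 50% of the CGR8 list were mostly at the width limit. Of these, 22 were 1000 bp wide and 3 were 800 bp, and none was narrower. They lay on 14 chromosomes, had scores of 335 or more and, where known, at least 114 reads. All 25 had an R1 score within 2-fold of the CGR8 score, and 19 of their R1 partners stood in the upper 50% of the R1 list. The R1 partners were 1000 to 2400 bp wide, and 17 were over 1000 bp, so most were not narrow there. Of the 25, 1 fell into an R1 region that also overlapped a wider CGR8 region, so its R1 score is that of a wider call.

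The highest score stood apart from all others. It belonged to a region on chromosome 8 from 19892401 to 19893400, with the same start and end in R1, and was 1642 in CGR8 and 1620 in R1. It lay 88.8 kb from the nearest wider H3K4me3 region. The nearest H3K27me3 region was 23 kb away in CGR8 and 5 kb away in R1, where the rule excluded only overlap. Neither score equalled a plain sum of window values. Both did with 1 of the 5 windows held at 1000, which left 185 reads in the other 4 windows in CGR8 and 175 in R1. The highest of those 4 held 85 and 78 reads. A held window has no read number, so the total is a lower bound there.

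The next scores were less than 50% of that. On chromosome 2 from 92240801 to 92241800 the score was 731 on 212 reads in CGR8 (exact 95% Poisson interval 184 to 243). R1 had 778 on 222 reads there (194 to 253). On chromosome 7 from 150834801 to 150835800 it was 611 on 183 reads, and in R1 705 on 205 reads. In these 2, and in the 2 that follow, the Poisson intervals of the lines overlapped. A second region of chromosome 7, from 30835601 to 30836600, had 602 on 179 reads in CGR8 and 620 on 190 reads in R1. On chromosome 9 from 122795601 to 122796600 the values were 594 on 181 reads and 496 on 161 reads. The R1 regions at these 4 places were 1200, 1200, 1400 and 1600 bp wide. All 4 lay between 10.8 and 47.8 kb from a wider CGR8 region, so none was a flank of one.

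The lowest scores rested on 22 to 25 reads. The regions on chromosome 5 from 77569001 to 77569800 and on chromosome 18 from 9280201 to 9281000 each scored 38.6 on 24 reads, 8.11 times the library mean. Their R1 partners scored 43.7 on 20 reads and 40.7 on 22 reads. A region on chromosome 1 from 84375801 to 84376400 scored 38.6 on 22 reads, and R1 had the same bounds there with 41.2 on 23 reads. On chromosome 15 from 76943601 to 76944600 the score was 38.7 on 25 reads, and 46.9 on 29 reads in R1. The remaining one, on chromosome 11 from 116023601 to 116024600, scored 38.6 on 25 reads in CGR8 and 72.0 on 41 reads in R1, where it was 2000 bp wide. All 5 lay close to the lowest score of the list in CGR8.

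Most of the narrow regions stood alone and were not flanks of a wider region. The nearest CGR8 H3K4me3 region over 1000 bp wide was a median of 22100 bp away, with quartiles of 7800 and 69350 bp. A region was called a satellite when that gap was at most 5000 bp and isolated otherwise. There were 229 satellites, 16.9% of the 1354 (exact 95% binomial interval 14.95 to 19.02), and 1125 isolated regions. Within 2000 bp of a wider region lay 102, and 254 (18.8%) were more than 100000 bp from one. Per kb of gap there were 51 regions up to 2000 bp, 42.3 from there to 5000 bp, 37 to 10000 bp and 23.4 to 20000 bp. No 2 CGR8 regions lie closer than 400 bp, so the first value understates the density where a gap was possible. The number per kb fell with distance. Over the same distances it also fell in the narrow shared regions with H3K27me3 (59 to 19.2) and in those of CGR8 alone (30 to 9.8). Nearest distances fall off in this way even for randomly placed regions, so nothing is read from the fall.

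Satellites were also counted among the other narrow regions. Of the 1228 narrow shared regions with H3K27me3, 273 were satellites (22.2%, interval 19.9 to 24.7), with a median gap of 19300 bp. Of the 631 narrow regions of CGR8 alone, 121 were (19.2%, interval 16.2 to 22.5). The rule kept the 1354 more than 5000 bp from CGR8 H3K27me3. This limits how many wider regions with that mark can lie within 5000 bp of them. The shares of the 1354 and of those with H3K27me3 are therefore not like for like, and the difference was not tested. The intervals treat neighbouring regions as independent. The 3 sets were drawn from the same list and share its wider regions.

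**Figure D2:**
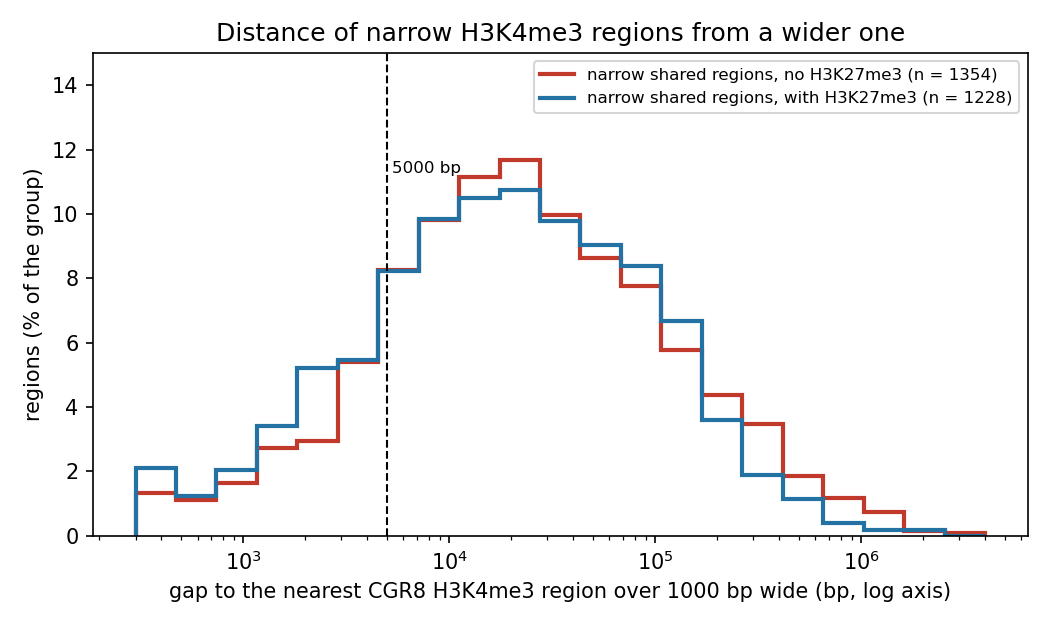
Gap in bp (horizontal axis, log scale) from each narrow shared CGR8 H3K4me3 region to the nearest one over 1000 bp wide, as percent of the set (vertical axis), for regions without H3K27me3 (red) and with it (blue). The dashed line marks 5000 bp, below which 16.9% of the first and 22.2% of the second set lie.

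Satellites and isolated regions had like scores. The median score was 64.7 for satellites (quartiles 51.0 and 95.2) and 67.8 for isolated regions (quartiles 50.7 and 100.2), and the median totals were 33 and 35 reads. Across the 1354 regions, the rank correlation between score and gap was -0.017. Regions farther than 100000 bp from a wider one had a median score of 64.6. So distance from a wider region, over the whole range, hardly sorted these regions by strength. The regions also seldom stood in groups: 41 (3.03%) had another of the 1354 within 5000 bp, and 40 of the 1125 isolated ones had any H3K4me3 region within that distance.

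The wider neighbours of satellites were near other wider regions in width, and their median score was lower. The 229 satellites had 226 distinct neighbours; the neighbour lay at the higher coordinate for 105 of the satellites. The neighbours had a median width of 2400 bp and a median score of 431. All 20895 autosomal CGR8 regions over 1000 bp had medians of 2200 bp and 554. The 12313 wider shared regions without H3K27me3 had medians of 2400 bp and 824. The rule kept satellites away from CGR8 H3K27me3, so the 20895 include many regions that could hardly be neighbours. The neighbour scored a median of 6.88 times the satellite, but in 43 cases it scored lower than the satellite beside it. Of the satellites, 11 had a neighbour that overlapped H3K27me3 of either line.

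The most isolated regions lay megabases from any wider H3K4me3 region. On chromosome 1 from 103653401 to 103654400 the gap was 3010.2 kb, and the nearest CGR8 H3K27me3 region was 3005.4 kb away, while that of R1 was 670.6 kb away. R1 had the same bounds there. The score was 51.3 on 31 reads in CGR8 and 42.5 on 26 reads in R1. On chromosome 14 from 113772201 to 113773000 the gap was 1666 kb, with 44 reads in CGR8 and 49 in R1. On chromosome 8 from 103631001 to 103631800 it was 1639.6 kb, with 37 and 25 reads. On chromosome 16, regions from 83137401 to 83138200 and from 68915801 to 68916800 had gaps of 1564.6 and 1294 kb, with 52 reads against 45 and 54 against 46. In each of these 5 regions the Poisson intervals of the 2 lines overlapped.

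Most widths in R1 were within 1 window of those in CGR8. All 1354 regions had exactly 1 R1 partner, and 1348 were covered by it over at least 50% of their width. The start and the end were identical in 367 (27.1%), at least 1 of them was identical in 1019 (75.3%), and the widths differed by at most 200 bp, 1 window, in 996 (73.6%). Over narrow shared regions with H3K27me3 these shares were 24.3%, 75.2% and 75.1%. Over all 22074 shared autosomal regions they were 13.0%, 57.3% and 54.0%. Autosomal CGR8 regions had a median width of 2000 bp, of which 200 bp is a smaller part. The shares of the 22074 are thus not like for like with those of narrow regions. For the 1354, the median R1 width was 1000 bp, against 800 bp in CGR8. The R1 region was wider in 654 (48.3%), equal in 460 (34.0%) and narrower in 240 (17.7%), and it exceeded 1000 bp in 407 (30.1%, exact 95% binomial interval 27.6 to 32.6).

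The regions were chosen for being narrow in CGR8, so the partner's width was also taken with the lines exchanged. Then the same rule found 1644 R1 regions, and their CGR8 partners were wider in 55.7%, narrower in 15.5% and over 1000 bp in 40.5%. Their median width was 800 bp and that of the CGR8 partners 1000 bp. In both directions, the partner was more often wider than narrower. The 2 sets shared 932 pairs of regions, which are 68.8% of the CGR8 set and 56.7% of the R1 set.

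**Figure D3:**
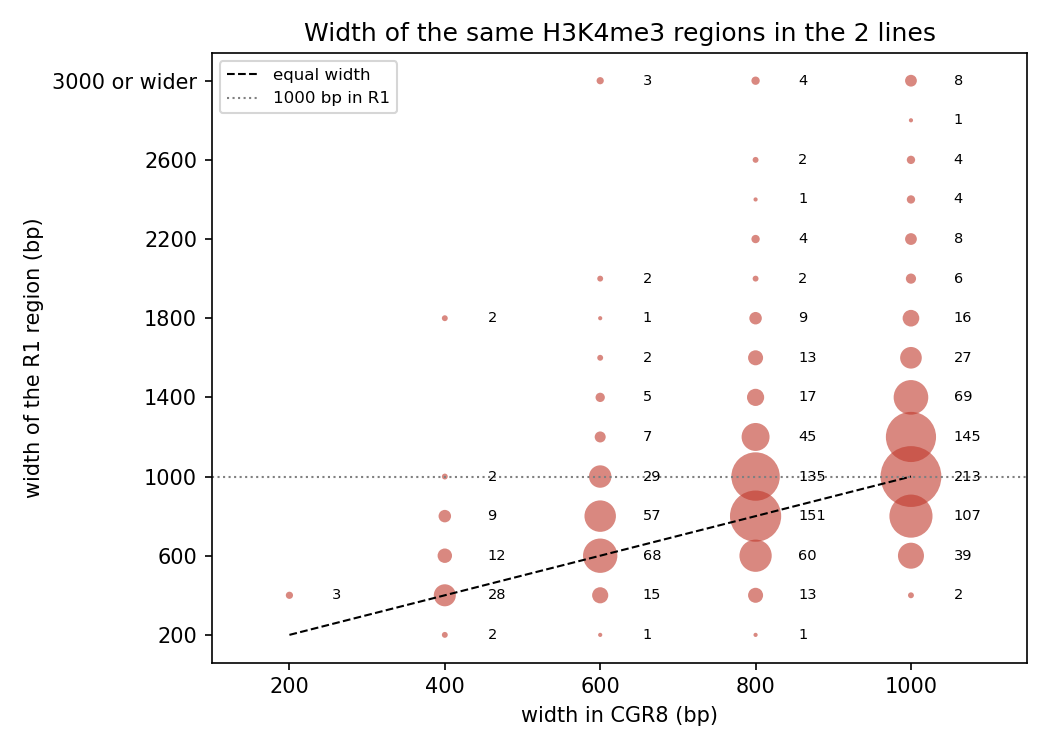
Width of the R1 H3K4me3 region (vertical axis, bp) against the width of the narrow CGR8 region it overlaps (horizontal axis, bp), for 1354 regions; circle area and the number beside it give the count at each pair of widths, and widths of 3000 bp or more are drawn in the top row. The circles on the dashed line of equal width hold 460 regions, and those above the dotted line at 1000 bp in R1 hold 407.

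Large changes in width were few. The R1 region was at least 2-fold wider for 102 regions (7.53%), against 1.92% of all 22074 shared autosomal H3K4me3 regions, and at least 2-fold narrower for 19 (1.40%), against 2.54%. The rule used the CGR8 width, so nothing is read from these shares. Satellites had an R1 region over 1000 bp in 98 of 229 cases (42.8%) and isolated regions in 309 of 1125 (27.5%). Satellites were also wider in CGR8, with a median of 1000 bp against 800 bp, and the shares were not adjusted for this. With the joined regions described next left out, the satellites' share was 83 of 214 (38.8%). In those 214, the R1 call reached farther than the CGR8 call toward the wider neighbour in 90 and away from it in 88.

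Few satellites shared an R1 region with a wider CGR8 region. In 15 of the 229 (6.55%, exact 95% binomial interval 3.71 to 10.6), a single R1 region overlapped both the narrow region and a wider CGR8 region, and these are called joined. They lay on 9 chromosomes. The gap to the nearest wider CGR8 region was 400 bp in 8 of them, 600 bp in 4, 800 bp in 2 and 1200 bp in 1. On chromosome 3 and in 1 of the pair on chromosome 4, the R1 region overlapped a wider region on the other side and not the nearest one. The smallest gap between any 2 CGR8 regions is 400 bp. Of the 18 satellites at 400 bp, 8 were joined in R1, and of the 69 at up to 1200 bp, 15 were. With the lines exchanged, 33 narrow R1 regions were joined in this way by a CGR8 region.

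The 5 widest R1 regions all belonged to this class. On chromosome 13, a CGR8 region from 23531601 to 23532200 (600 bp, 30 reads) lay 400 bp past a region of 17000 bp that began at 23514201. R1 had 1 region of 18000 bp there, from 23514401 to 23532400. On chromosome 14, a CGR8 region from 65213001 to 65213800 (32 reads) lay 400 bp past one of 8200 bp, and R1 had 1 region of 9800 bp from 65205401 to 65215200. Those on chromosome 7 from 17364801 to 17365800, on chromosome 14 from 31365601 to 31366600 and on chromosome 11 from 4139601 to 4140200 fell into R1 regions of 6200, 5000 and 4800 bp. Between them, these 5 held 27 to 39 reads each in CGR8. The map of the 15 joined regions shows the narrow piece on either side of the wider one.

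**Figure D4:**
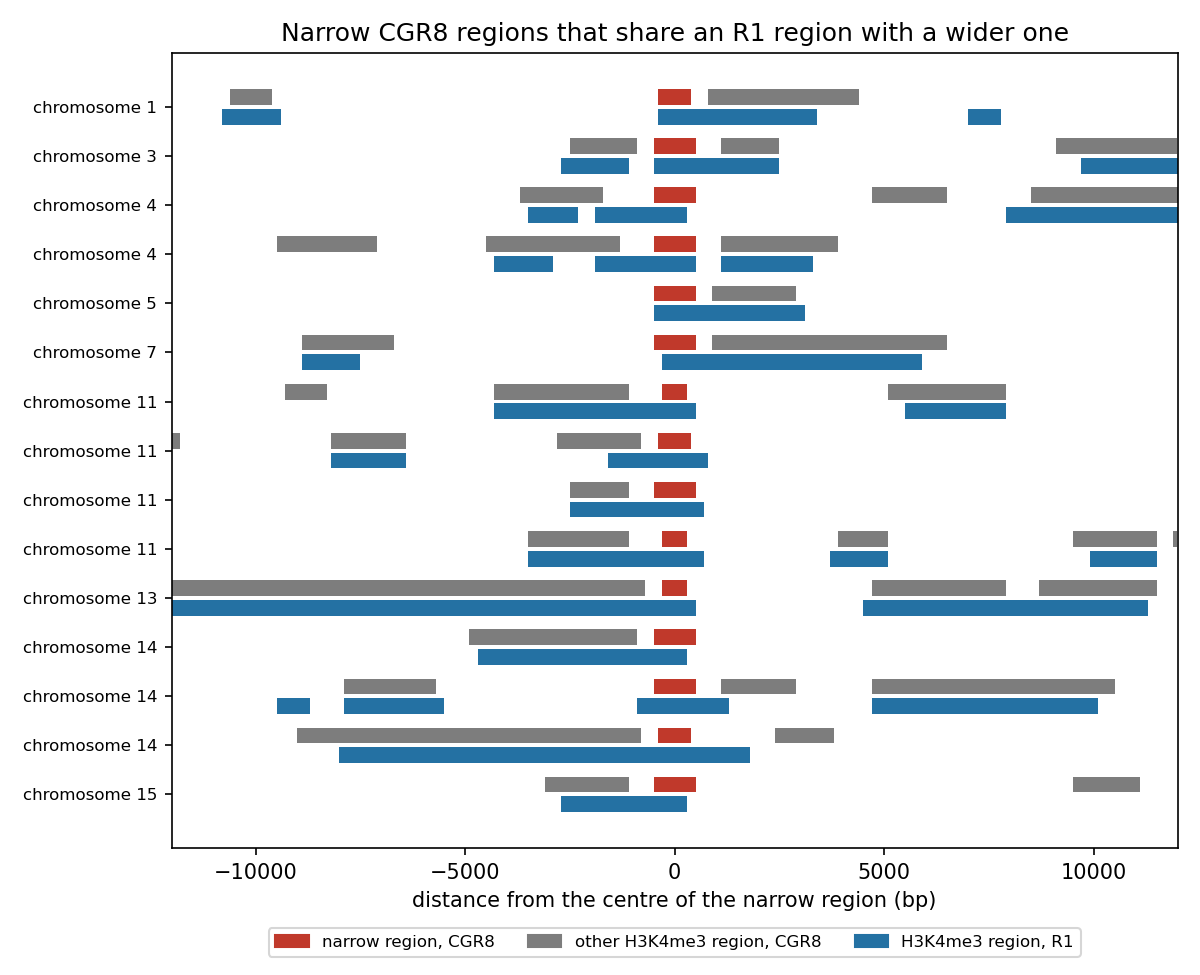
H3K4me3 regions around the 15 narrow CGR8 regions (red) that fall into an R1 region (blue, lower bar of each pair) which also overlaps a wider CGR8 region (grey, upper bar); the horizontal axis is the distance in bp from the centre of the narrow region, drawn to 12 kb on either side, and each row is 1 region, labelled by chromosome. The gap between red and the nearest wider grey bar is 400 bp in 8 rows and 1200 bp at most.

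Among these regions, all called in both lines by the rule, signal strength was close for the great majority. The R1 score was at least 2-fold higher for 57 regions (4.21%), against 2.05% of all shared autosomal regions, and at least 2-fold lower for 32 (2.36%), against 2.84%. Without the 15 joined regions, whose R1 score is that of the whole wide call, 46 of 1339 (3.44%) were at least 2-fold higher. The rule required a call in both lines, and the lowest score of the R1 list was 37.3. A region that scored less than 2 times that value in CGR8 could not be 2-fold lower in R1. These shares are therefore a description. The median log2 ratio of the scores, R1 over CGR8, was 0.04, and it was -0.03 over all shared regions. The rank correlation between the lines across the 1354 regions was 0.643 for the score, 0.452 for the width and 0.663 for the reads. It runs across regions of the same 2 libraries and is a description.

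Reads could be compared in the 1314 regions with known totals, which leave out all 15 joined regions and the others with an R1 region over 2000 bp. In these 1314, the R1 score was at least 2-fold higher for 41 (3.12%) and at least 2-fold lower for 32 (2.44%). Divided by the mean per window of its library, the R1 total was at least 2-fold higher in 20 (1.52%), against 1.59% of the 2697 shared autosomal regions of at most 1000 bp with known totals. It was at least 2-fold lower in 3 (0.228%), against 0.222%. The 95% Poisson intervals of the scaled totals did not overlap in 41 (3.12%), against 3.56% of those 2697. Of the 41, 35 were higher in R1 and 6 in CGR8, and 23 had an R1 region over 1000 bp. These shares were near those of the 2697 regions, which include the 1314. Both sets required an R1 call, which limits how low an R1 total could be. They also capped the width at 1000 bp in CGR8 only, while R1 totals covered regions up to 2000 bp. Nothing is therefore read from the split of 35 and 6. By score, the partner was the higher in 54.4% of the 1354 regions, and in 57.8% of the 1644 with the lines exchanged.

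**Figure D5:**
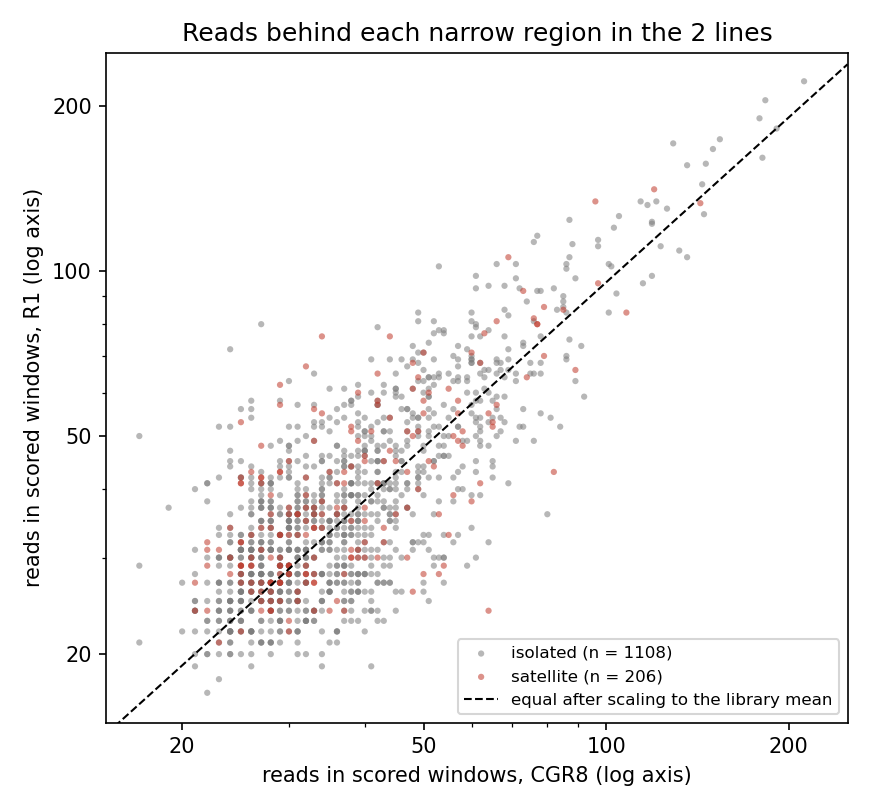
Reads in scored windows of R1 (vertical axis, log scale) against CGR8 (horizontal axis, log scale) for the 1314 regions with known totals in both lines; each point is 1 region, red for the 206 satellites and grey for the 1108 isolated ones, and the dashed line marks totals that are equal after division by each library's mean. Points of both colours spread around the line, and 20 lie at least 2-fold above it and 3 at least 2-fold below.

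The H3K27me3 list of R1, which the rule used only for overlap, lay at similar distances. The nearest H3K27me3 region was a median of 60200 bp away in CGR8 and 66500 bp in R1, and 433 regions (32.0%) were more than 100000 bp from H3K27me3 in both lines. Within 5000 bp of an R1 H3K27me3 region lay 29 (2.14%, exact 95% binomial interval 1.44 to 3.06). Their median score was 65.7, and 11 of them were satellites.

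The regions were spread over all autosomes. They made up 5.51% of the autosomal H3K4me3 regions, from 4.73% on chromosome 19 (40 of 845) to 7.46% on chromosome 14 (63 of 844, exact 95% binomial interval 5.78 to 9.45). A block of chromosome 1, singled out from earlier results of these data, had 565 H3K27me3 regions in R1 and 34 in CGR8. It held 8 of the narrow regions, the first starting at 108015601 and the last ending at 121980200. In all 8 the R1 score exceeded that of CGR8, as it did in 728 of the other 1346 and in 45.7% of all shared autosomal regions. The median log2 ratio was 0.76, against 0.04 for the other 1346. The highest ratio, 2.95, belonged to a joined region, and the other 7 ran from 0.17 to 1.54 with a median of 0.57. In reads over the library mean, known in both lines for 6 of the 8, the median log2 ratio was 0.44, against 0.07 elsewhere. Whether this has to do with the H3K27me3 difference was not tested.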

How the data were processed

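ChIP-seq region lists of 4 libraries (H3K27me3 and H3K4me3 in CGR8 and R1) were used. The authors deposited 1 list per library, with a score per region that has no stated unit or formula. Bowtie2 2.0.2, SICER 1.1, bedtools 2.20.1 and build mm9 are named, per the submitters' processing notes. The sources used here do not give their settings or any control library. Width was end minus start plus 1. The R1 partner was the R1 region with the most shared bases. Reads were recovered by searching all sums of window scores that match a region's score within 1e-08, with at least 2 reads per scored window, for regions up to 2000 bp. The rule, the gaps and the read recovery were tested on simulated lists first. For the read recovery, the simulated regions were at most 1000 bp wide and had every window scored. Wider regions, omitted windows and windows with as many reads as the strongest ones here were not covered. Regions named by position were, by rule, the 5 highest and 5 lowest scores, the 5 farthest from a wider region and the 5 with the widest R1 region. The 3 regions of 200 bp, the 25 in the upper 50% of the list and the 15 joined ones fall outside it and were picked with their values in view. The regions and the rule were chosen with earlier results of these data known. No genome or annotation of build mm9 was used, so genes and sequences were not analysed here. Intervals are exact (Clopper-Pearson or Poisson) at 95%. Python 3.11.15, numpy 2.4.6, scipy 1.17.1, pandas 2.3.3 and matplotlib 3.10.9 were used.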

Additional observations from a re-analysis of the deposited data

How the results depend on the processing

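The number of regions, the median score, the share of satellites, the median gap and the median R1 width were recomputed under the alternatives. They stayed within 1.5 times the count, or within the 95% interval of the median or share, in 31 of 50 recomputations and moved in 19. A width limit of 600 bp left 248 regions with a median score of 57.0, 14.1% satellites, a median gap of 33800 bp and a median R1 width of 600 bp. Only 19 regions came from the higher-scoring 50% of each list, with a median score of 449, 10.5% satellites, a median gap of 18800 bp and a median R1 width of 1200 bp. With all conditions on the other line dropped, both its H3K4me3 partner and its H3K27me3, 2055 regions of CGR8 and 2441 of R1 met the rule, whether or not they had a partner, with median scores of 57.3 and 55.7. The share of satellites was then 17.7% and 16.3%, and the median gap 22200 and 24400 bp. Started from the R1 list, the median score was 64.4. The share of satellites was 7.53% at a limit of 2000 bp, 30.6% at 10000 bp and 10.6% where the wider region had to exceed 2000 bp, which put the median gap at 41600 bp. The cause was not tested for any of these. No paired analysis was possible because each line has 1 library per mark and no result comes from a test.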
